A study of Mus musculus with 10 samples.

Results

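The genes described here are 42 immediate early and stress response genes, measured by RNA-seq in sorted cells of the adult mouse prostate. They were listed by gene name, with earlier results of these data known. Rows of the deposited tables were assigned to genes by their mm10 locus, and FPKM (fragments scaled by transcript length and by library size) was summed per gene, which gave 24534 genes. All 42 members were in that table, none was listed at 0 in any library, and all 42 passed the filter of 1 FPKM or more in at least 2 libraries that left 12394 genes for testing. The cells came from C57BL/6 mice aged 8 to 12 weeks and were separated by surface antigens into 4 gates. Stromal cells were sorted as Lin-/CD24-/CD49f- (2 libraries) and basal cells as Lin-/CD24low/CD49fhigh (2 libraries). Luminal cells were sorted as Lin-/CD24high/CD49flow and split by Sca-1 into Sca-1+ (3 libraries) and Sca-1- (3 libraries). The labels carry no genotype, treatment or time point that separates the gates. They give the same handling for all 10 libraries, namely digestion of the tissue to single cells and antibody staining for 30 min at 4 °C before sorting, and the same text describes culture of dissociated cells in medium with DHT without saying whether the sorted cells were cultured. No undissociated tissue was analysed here, so the level that a gene had in tissue and the level it reached during handling cannot be told apart.

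Immediate early genes are transcribed within minutes of a stimulus and need no new protein for it. Growth factor, stress and calcium signals reach their promoters through kinase cascades that act on serum response factor, CREB and NF-kB already present in the cell. Many encode transcription factors, among them the AP-1 subunits of the Fos, Jun and Atf families and the EGR and NR4A factors, and others encode proteins that end the response by removing phosphate from kinases, degrading mRNA or blocking NF-kB. Enzymatic dissociation and sorting are known to induce these genes and the heat shock genes in many tissues, and the same genes also serve tissue-specific functions.

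The promoters of the members hold sequences that these factors are known to bind, and those found upstream of the start site are printed for the genes that the results turn on. RefSeq promoter windows (GRCm38.p6, the same assembly as mm10) of 300 bases, 250 before and 50 after a start site, were found for 35 of the 42 members; Cebpd, Egr1, Egr3, Hspa8, Ier2, Myc and Nfkbiz had no entry. Both strands were searched, and a gene with several windows was counted once if any of them held the motif. The NF-kB consensus, searched by name and added after the expression values had been seen, was present in 8 of the 35 members (22.9%) and in 5.14% of 27025 genes with a window. The 8 were Fos, Fosb, Fosl2, Ier3, Maff, Nfkbia, Nr4a1 and Tnfaip3, and Socs3 had a window without it. They did not share a single gate pattern. Mean FPKM in Sca-1- luminal cells was the lowest of the gates for Fosl2, Ier3, Maff, Nfkbia, Nr4a1 and Tnfaip3 but the highest for Fos. For Fosb the lowest mean was that of basal cells. A looser NF-kB pattern, which contains the consensus, was present in 28 members (80.0%) and in 53.5% of all genes. Capitals mark the NF-kB consensus in Nfkbia (chr12:55492648-55492696, minus strand), in Tnfaip3 (chr10:19015411-19015555, minus strand), where it occurs at both ends of the stretch, and in Ier3 (chr17:35821601-35821650, plus strand).
Nfkbia: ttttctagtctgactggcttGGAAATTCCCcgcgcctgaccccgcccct
Tnfaip3: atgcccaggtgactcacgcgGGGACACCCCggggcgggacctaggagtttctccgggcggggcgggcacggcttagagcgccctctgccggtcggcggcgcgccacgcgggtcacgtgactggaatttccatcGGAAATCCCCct
Ier3: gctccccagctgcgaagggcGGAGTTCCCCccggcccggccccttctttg

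The cAMP response element TGACGTCA, bound by CREB and ATF proteins, was found in 3 members (8.57%), Btg2, Dusp1 and Maff, and in 2.03% of all genes. It is in capitals in Btg2 (chr1:134079294-134079341, minus strand), Dusp1 (chr17:26508588-26508635, minus strand) and Maff (chr15:79347471-79347518, plus strand).
Btg2: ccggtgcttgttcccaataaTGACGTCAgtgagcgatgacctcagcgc
Dusp1: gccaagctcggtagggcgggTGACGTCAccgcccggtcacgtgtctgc
Maff: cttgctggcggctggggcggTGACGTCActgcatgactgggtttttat
The CArG box, the site of serum response factor, was found in 2 members (5.71%), Zfp36 (chr7:28379257-28379306, minus strand) and Egr2 (chr10:67537474-67537523 and chr10:67537777-67537826, plus strand, upstream of different start sites), and in 1.81% of all genes.
Zfp36: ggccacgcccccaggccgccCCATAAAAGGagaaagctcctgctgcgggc
Egr2: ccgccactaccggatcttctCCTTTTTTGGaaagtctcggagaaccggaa
Egr2: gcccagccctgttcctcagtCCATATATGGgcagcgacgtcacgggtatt
The AP-1 site TGACTCA was found in 1 member (2.86%), Tnfaip3, where it lies just before the first NF-kB match, and in 5.95% of all genes. A heat shock element, in either of its forms with 3 inverted repeats, was found in 1 member, Hsph1, and in 0.662% of all genes. These matches describe letters in a window and were not tested as binding sites.

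Depth, read from the steps between low FPKM values, was 20.2 to 27.3 M (mega) fragments per library. Correlations of log2(FPKM + 1) over tested genes within a gate were 0.963 between the stromal libraries, 0.976 between the basal libraries, 0.84 to 0.951 among the Sca-1+ luminal libraries and 0.936 to 0.971 among the Sca-1- luminal libraries. The defining markers followed the labels in part. The 8 basal markers, led by keratins, summed to 7649 and 8933 FPKM in the basal libraries and to at most 3320 FPKM elsewhere, and the 8 luminal markers summed to 137800 to 174100 FPKM in the Sca-1- luminal libraries and to 7526 to 23560 FPKM in the Sca-1+ luminal libraries. The 12 fibroblast markers summed to 7820 and 6169 FPKM in the stromal libraries, but also to 5663, 2962 and 414 FPKM in Sca-1+ luminal libraries, against 102, 79.3 and 144 FPKM in Sca-1- luminal libraries. Sca-1+ luminal libraries 1 and 2 thus held far more fibroblast transcripts than library 3, and calls of members and of related lists between the luminal gates are given with and without them. Library 3 differed in epithelial markers too. Its basal marker sum was 3320 FPKM, of which Krt15 made up 3225 FPKM, against sums of 729 and 1447 FPKM in libraries 1 and 2. Its luminal marker sum was 7526 FPKM, against 12750 and 23560 FPKM. Calls without libraries 1 and 2 therefore rest on 1 library that differed in more than fibroblast transcripts. The 12 leukocyte markers summed to 13.5 to 59.3 FPKM and the 8 endothelial markers to 5.84 to 37.7 FPKM over all libraries. In these bulk samples, fewer cells of a type and less RNA per cell cannot be told apart.

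Most members were abundant whatever the gate. A gene was called high in every gate when it stood at or above the 90th percentile of all genes in each of the 10 libraries, and 25 of 42 members (59.5%) met this, against 4.2% of all genes. When percentiles were taken among the tested genes, 21 members met it, against 3.52% of those genes. At the 80th percentile of all genes 31 members did, against 10.7%, and with no minimum transcript length 25 did, against 4.24%. The 25 were Fos, Jun, Junb, Jund and Atf3 of the AP-1 family, Egr1 and Nr4a1, the early response and feedback genes Ier2, Ier3, Dusp1, Zfp36 and Btg2, the chaperone genes Hspa1a, Hspa1b, Hspa8, Hspb1 and Dnajb1, the transcription factors Klf6, Myc, Cebpb and Cebpd, all 3 Gadd45 genes, and Nfkbia. The markers Atf3, Fos and Egr1 had lowest percentiles of 98.8, 96.6 and 98.4 over the libraries, in that order. The highest minimum levels over the 10 libraries were 279 FPKM for Junb, 269 FPKM for Hspb1, 186 FPKM for Zfp36, 185 FPKM for Atf3, 158 FPKM each for Egr1 and Dusp1, 155 FPKM for Btg2 and 144 FPKM for Hspa8.

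The other 17 members fell below that percentile in at least 1 library. Egr3 (0.352 to 6.41 FPKM), Dusp2 (1.15 to 5.66 FPKM) and Klf2 (1.54 to 27.2 FPKM) were the lowest, and Nr4a2, Nr4a3, Tnfaip3, Socs3, Nfkbiz, Fosl2, Ier5 and Egr2 dropped under 10 FPKM in some libraries. Together, the members summed to 13610 and 13510 FPKM in the stromal libraries, 18010 and 10110 FPKM in the basal libraries, 14000, 11500 and 11220 FPKM in Sca-1+ luminal libraries, and 9024, 7180 and 9144 FPKM in Sca-1- luminal libraries. The Sca-1- luminal sums were the 3 lowest and did not overlap the others. As a share of all FPKM the members made up 3.31% and 2.84% in stromal, 4.57% and 2.52% in basal, 3.27%, 2.51% and 2.34% in Sca-1+ luminal, and 1.42%, 1.10% and 1.44% in Sca-1- luminal libraries. The total itself was 635500 to 655300 FPKM in the Sca-1- luminal libraries and 394200 to 480100 FPKM in all others.

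**Figure D1:**
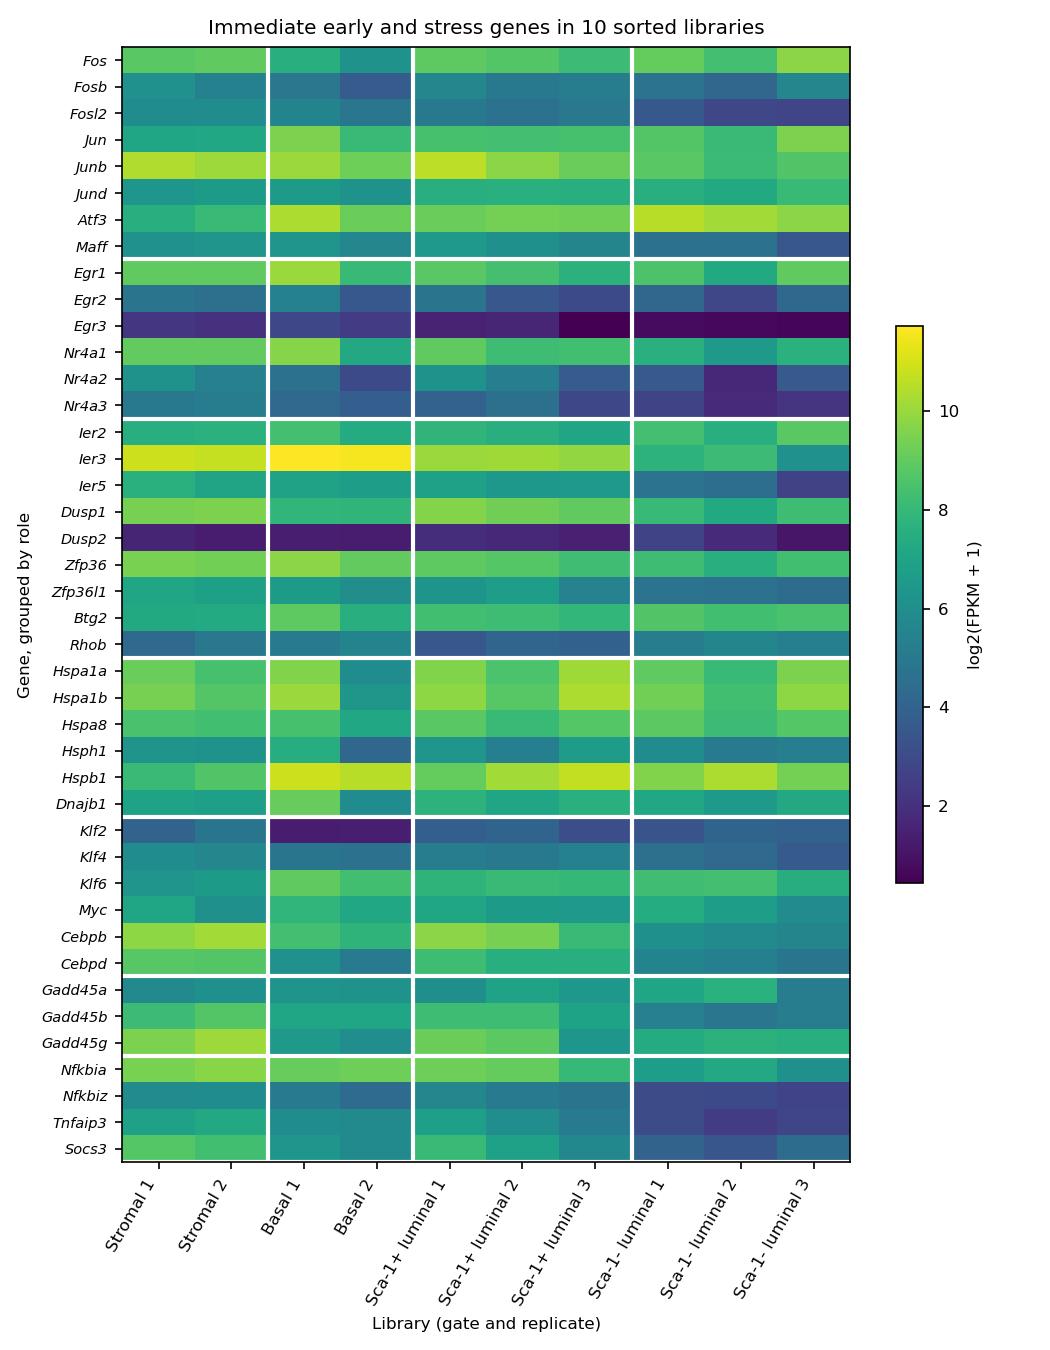
Heat map of log2(FPKM + 1) for the 42 members (rows, grouped by role, white lines between roles) in the 10 libraries (columns, white lines between gates). Rows such as Junb and Atf3 are bright in every column, whereas the NF-kB feedback genes, Cebpb and Ier5 are darkest in the 3 Sca-1- luminal columns.

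Whether members differ by lineage was asked with a limma F test over the 4 gate means on log2(FPKM + 1), adjusted by Benjamini-Hochberg over all 12394 genes. It called 28 of 42 members (66.7%), and 61.9% of all genes tested, so the share of members called was near the background. Members that were high in every gate fell on both sides of this test: Egr1, at 158 FPKM or more everywhere, was not called (adjusted p = 0.535), whereas Atf3, at 185 FPKM or more, was (adjusted p = 0.00515). By role, the test called 7 of 8 AP-1 genes, 3 of 6 EGR and NR4A genes, 6 of 9 feedback and early response genes, 1 of 6 heat shock genes, 5 of 6 KLF, C/EBP and Myc genes, 2 of 3 GADD45 genes and 4 of 4 NF-kB and cytokine feedback genes. Members varied more within a gate than other genes did, with a median residual SD of 0.54 on the log2 scale, against 0.34 for all genes tested, and this reached 1.00 for the heat shock genes. The members with the largest range between gate means were Socs3 (4.55 on the log2 scale), Tnfaip3 (4.33), Ier3 (4.29) and Cebpb (4.14).

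**Figure D2:**
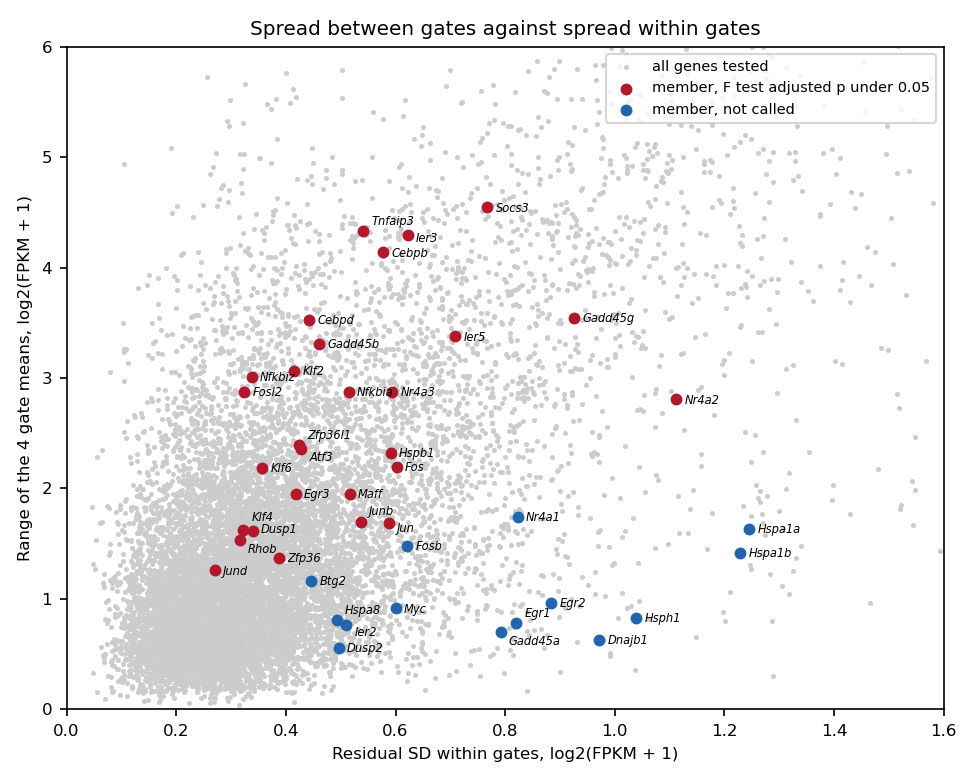
Range of the 4 gate means (vertical axis) against the residual SD within gates (horizontal axis), both on log2(FPKM + 1). Members called by the F test are red, other members blue and all tested genes grey (125 genes lie outside the axes). The called members reach a range of 4.55 for Socs3, and Hspa1a, Hspa1b, Hsph1 and Dnajb1 lie to the right, with large residual SD and small range.

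Between the 2 luminal gates, 17 members were higher and 1 was lower in Sca-1+ luminal cells than in Sca-1- luminal cells. The higher members included all 4 NF-kB and cytokine feedback genes, Cebpb, Cebpd, Gadd45b, Ier3, Ier5, Fosl2, Junb, Maff, Nr4a2, Nr4a3, Dusp1, Zfp36l1 and Klf4, and the lower member was Rhob. At the same rule, 21.8% of all genes were called higher and 13.2% lower, 35% in all, and the median log2 change was 0.58 over members and 0.19 over all genes tested. The heat shock genes and Egr1, Egr2 and Egr3 were not called. Without Sca-1+ luminal replicates 1 and 2, which held the most fibroblast transcripts of their gate, 10 members were called, against 16.3% of all genes: Cebpb, Cebpd, Fosl2, Gadd45b, Ier3, Ier5, Nfkbiz, Socs3 and Tnfaip3 were called higher and Rhob lower. The log2 changes were then 2.22 for Cebpb, 2.31 for Cebpd, 1.89 for Fosl2, 1.87 for Gadd45b, 2.52 for Ier3, 2.54 for Ier5, 1.87 for Nfkbiz, 1.73 for Socs3, 2.35 for Tnfaip3 and -1.44 for Rhob. The 8 members not called then had log2 changes of 0.59 (Junb), 0.68 (Nr4a3), 0.76 (Nr4a2), 0.84 (Zfp36l1), 1.12 (Dusp1), 1.21 (Klf4), 1.28 (Maff) and 1.30 (Nfkbia), with adjusted p of 0.0645 to 0.589. The remaining Sca-1+ luminal library was there assumed to vary like the other gates. Of all calls in this comparison, those for Junb and Nr4a2 were the weakest, with adjusted p of 0.0432 and 0.0484. Both were lost when any library other than Sca-1+ luminal replicate 3 was left out, with adjusted p of 0.0528 to 0.126 for Junb and 0.0511 to 0.153 for Nr4a2, and both were called without that replicate.

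Basal cells had 14 members higher and 3 lower than Sca-1- luminal cells. The higher ones were the 4 NF-kB and cytokine feedback genes, Ier3, Ier5, Zfp36, Zfp36l1, Fosl2, Maff, Egr3, Nr4a3, Gadd45b and Cebpb, and the lower ones were Fos, Jund and Klf2. Of all genes, 20.1% were called higher and 25.9% lower, 46% in all, and the median log2 change was 0.67 over members and -0.05 over all genes. Without basal replicate 1, 10 members were higher and 6 lower, and without basal replicate 2, 17 were higher and 1 lower. This comparison and the one between luminal gates share the Sca-1- luminal libraries.

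Between basal and Sca-1+ luminal cells, 2 members were higher in basal cells, Egr3 and Rhob, and 5 were lower, Fos, Jund, Dusp1, Klf2 and Cebpd. Of all genes, 4.35% were called higher and 15.3% lower, 19.6% in all, with medians of -0.09 over members and -0.29 over all genes. The count was 1 without basal replicate 2 and 11 without Sca-1+ luminal replicate 3. It was 4 when replicates 1 and 2 of the Sca-1+ gate were both left out, with Fos, Jund and Dusp1 no longer called (adjusted p = 0.22, 0.081 and 0.104), against 15.8% of all genes. Quantile normalization changed the split to 3 higher and 4 lower.

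Stromal cells were compared with the mean of the 3 epithelial gates. In them 15 members were higher, namely the 4 NF-kB and cytokine feedback genes, Cebpb, Cebpd, Gadd45b, Gadd45g, Klf2, Klf4, Fosl2, Nr4a3, Dusp1, Zfp36l1 and Ier5, and 5 were lower, namely Atf3, Jun, Jund, Klf6 and Hspb1. Of all genes, 15.8% were called higher and 18.4% lower, 34.2% in all, and the median log2 change was 0.75 over members and -0.12 over all genes. With either stromal library left out, 9 members were called, and the lone stromal library was then assumed to vary like the other gates.

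**Figure D3:**
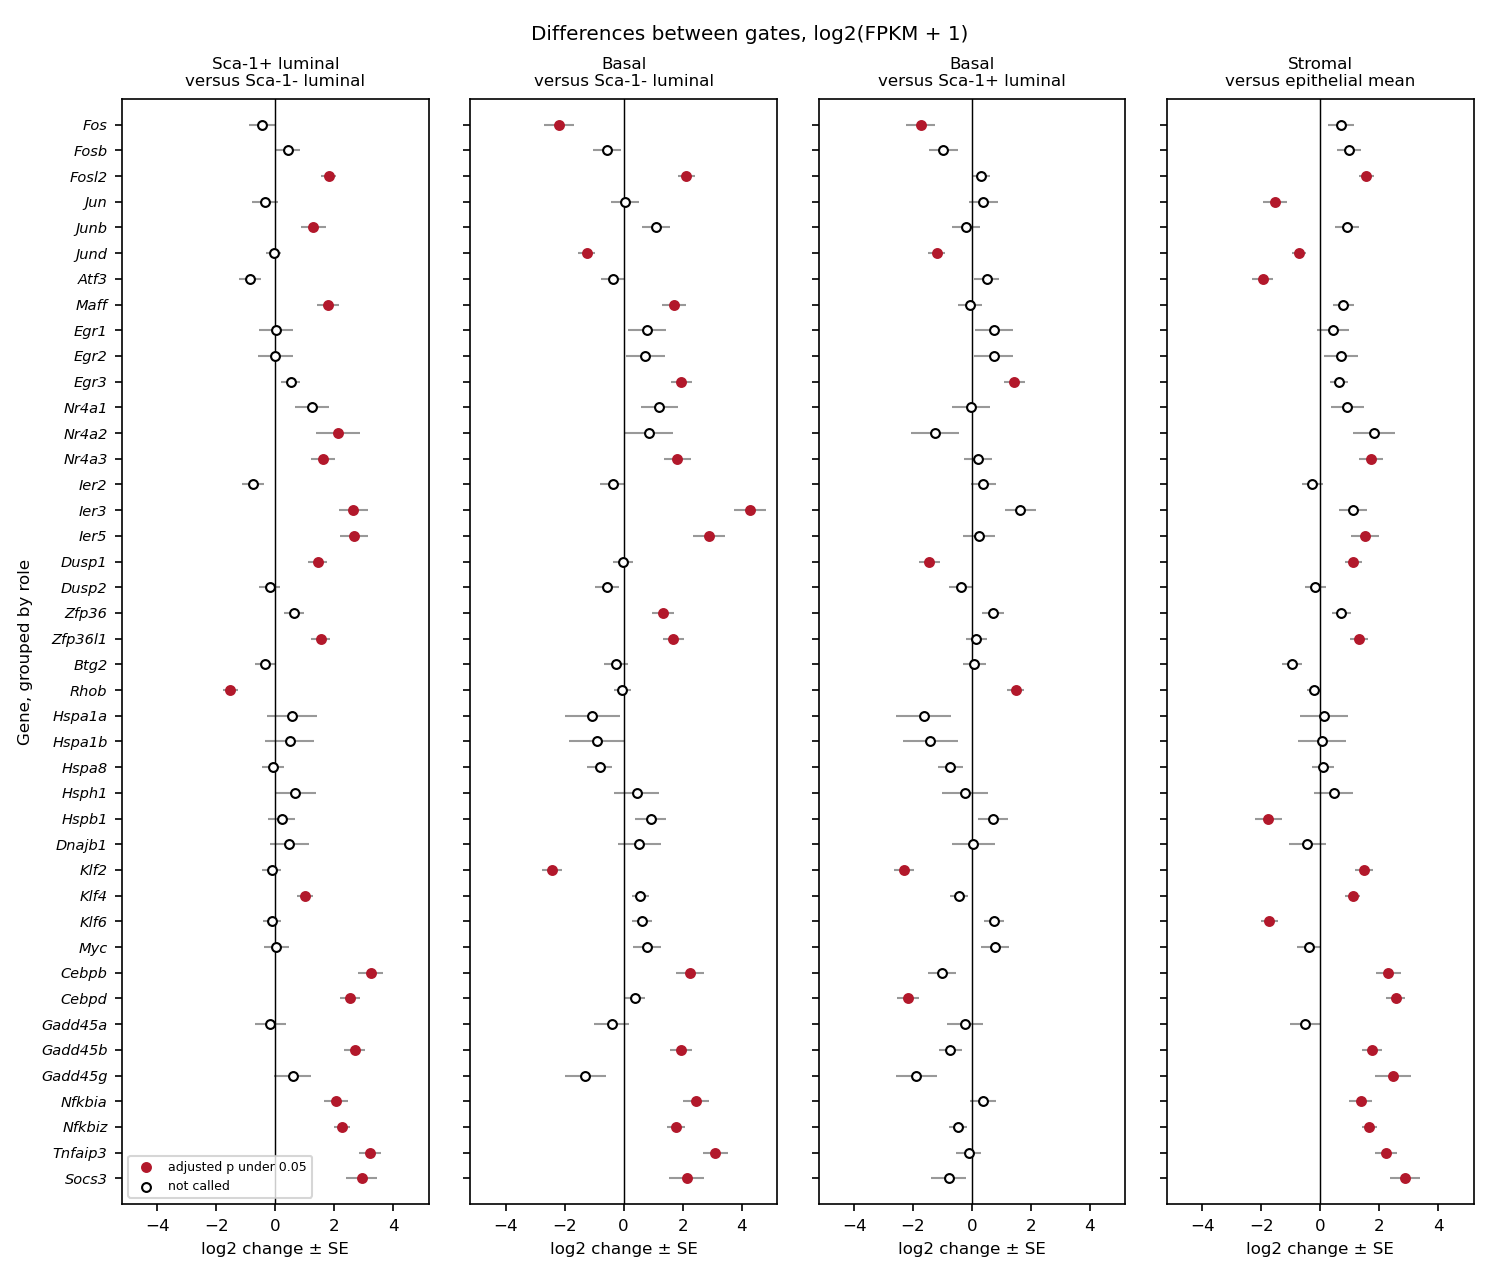
log2 change with its SE (horizontal axes, on log2(FPKM + 1)) of each member (rows, by role) in the 4 comparisons. Red points had an adjusted p under 0.05 and open points did not. The NF-kB and cytokine feedback genes in the last 4 rows are red and right of 0 in 3 of the 4 panels, and in the panel of basal against Sca-1+ luminal cells none of them is red.

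The 8 AP-1 genes encode the subunits that pair to form AP-1 and the related small Maf factor Maff. Their gate patterns differed from gene to gene. Fos had 453 and 496 FPKM in stromal libraries, 185 and 73.2 FPKM in basal libraries, 489, 424 and 291 FPKM in Sca-1+ luminal libraries, and 530, 330.5 and 878 FPKM in Sca-1- luminal libraries. The basal libraries were the 2 lowest and did not overlap the other gates. Fos was lower in basal than in Sca-1- luminal cells (log2 change -2.19 ± 0.50 (SE), adjusted p = 0.00569) and than in Sca-1+ luminal cells (log2 change -1.74 ± 0.50 (SE), adjusted p = 0.0364). Without basal replicate 2, which held the lowest value, neither difference was called (adjusted p = 0.0731 and 0.304). The second was also not called when the library left out was a stromal one, replicate 1 or 2 of Sca-1+ luminal cells, or replicate 1 of Sca-1- luminal cells (adjusted p = 0.0545 to 0.0956).

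Atf3 had 185 and 261.5 FPKM in stromal libraries, 1313 and 591.5 FPKM in basal libraries, 571, 671 and 629.7 FPKM in Sca-1+ luminal libraries, and 1471, 1133 and 872 FPKM in Sca-1- luminal libraries. This stress-induced repressor was lowest in both stromal libraries, which overlapped no epithelial library. Atf3 was lower in stromal cells than in the epithelial mean (log2 change -1.95 ± 0.36 (SE), adjusted p = 0.00392), a call that was lost without stromal replicate 1 (log2 change -1.70, adjusted p = 0.0641). Between Sca-1+ and Sca-1- luminal cells its difference was not called (log2 change -0.86, adjusted p = 0.0975), although every Sca-1+ luminal library lay below every Sca-1- luminal one.

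Junb had 1348 and 1095 FPKM in stromal libraries, 1052 and 605 FPKM in basal libraries, 1558, 879.6 and 563 FPKM in Sca-1+ luminal libraries, and 462, 279 and 405 FPKM in Sca-1- luminal libraries. The 3 lowest values were those of the Sca-1- luminal libraries. Junb, which forms AP-1 dimers with Fos proteins, was higher in Sca-1+ luminal than in Sca-1- luminal cells (log2 change 1.29 ± 0.43 (SE), adjusted p = 0.0432). Fosl2 had 60.6 and 60.4 FPKM in stromal libraries, 45.0 and 28.4 FPKM in basal libraries, 31.1, 24.6 and 30.2 FPKM in Sca-1+ luminal libraries, and 10.8, 6.23 and 5.96 FPKM in Sca-1- luminal libraries. Fosl2 was highest in the stromal libraries, the basal and Sca-1+ luminal libraries overlapped, and the Sca-1- luminal libraries stood apart below all others. Fosl2 was higher in Sca-1+ luminal (log2 change 1.81 ± 0.26 (SE), adjusted p = 0.00142) and in basal cells (log2 change 2.13 ± 0.29 (SE), adjusted p = 0.000381) than in Sca-1- luminal cells, and higher in stromal cells than in the epithelial mean (log2 change 1.56 ± 0.25 (SE), adjusted p = 0.00234).

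Jund had 81.0 and 95.1 FPKM in stromal libraries, 94.8 and 71.3 FPKM in basal libraries, 190.5, 196 and 183.5 FPKM in Sca-1+ luminal libraries, and 188, 154 and 268 FPKM in Sca-1- luminal libraries. The stromal and basal libraries lay below all luminal libraries. In stromal cells Jund was lower than in the epithelial mean (log2 change -0.72 ± 0.24 (SE), adjusted p = 0.0440). That call was lost with no filter on low values and with median-of-ratios scaling (adjusted p = 0.0686 and 0.0587). Jund, a Jun protein made in many resting cells, was lower in basal than in Sca-1- luminal cells (log2 change -1.26 ± 0.28 (SE), adjusted p = 0.00514), a call lost without basal replicate 2 (adjusted p = 0.0607). Jun was measured at 135 to 735 FPKM, with the stromal libraries lowest at 135 and 143 FPKM, and was lower in stromal cells than in the epithelial mean (log2 change -1.54 ± 0.42 (SE), adjusted p = 0.0204), which was not called with either stromal library left out (adjusted p = 0.138 and 0.104). Maff ranged over 10.4 to 91.2 FPKM with its 3 lowest values in Sca-1- luminal libraries. Fosb, at 12.1 to 70.3 FPKM, was the AP-1 gene that the F test did not call (adjusted p = 0.119).

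The EGR and NR4A genes encode zinc finger factors and orphan nuclear receptors that respond to growth factor and calcium signals. Egr1 had 508 and 507 FPKM in stromal libraries, 1046 and 275 FPKM in basal libraries, 465, 337 and 208 FPKM in Sca-1+ luminal libraries, and 382, 158 and 503 FPKM in Sca-1- luminal libraries. Basal library 1 was the highest and basal library 2 lay among the lowest, so the basal range took in the stromal libraries. The stromal libraries lay above every luminal library, at most 503 FPKM, and the luminal gates overlapped each other. No comparison called Egr1, whose log2 change was 0.03 between Sca-1+ and Sca-1- luminal cells and 0.78 between basal and Sca-1- luminal cells.

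Egr3 had 3.67 and 3.17 FPKM in stromal libraries, 6.41 and 4.25 FPKM in basal libraries, 1.89, 2.15 and 0.352 FPKM in Sca-1+ luminal libraries, and 0.708, 0.584 and 0.553 FPKM in Sca-1- luminal libraries. The basal libraries were the 2 highest, and the Sca-1- luminal libraries all lay under 1 FPKM. Egr3 was higher in basal than in Sca-1- luminal cells (log2 change 1.95 ± 0.36 (SE), adjusted p = 0.00184) and than in Sca-1+ luminal cells (log2 change 1.44 ± 0.36 (SE), adjusted p = 0.0215), the second of which was not called with either basal library left out (adjusted p = 0.163 and 0.0773). Nr4a3 had 31.0 and 35.6 FPKM in stromal libraries, 18.5 and 12.9 FPKM in basal libraries, 15.0, 23.4 and 6.47 FPKM in Sca-1+ luminal libraries, and 5.72, 2.43 and 3.38 FPKM in Sca-1- luminal libraries. Stromal libraries were the 2 highest and Sca-1- luminal libraries the 3 lowest. Nr4a3 was higher in basal than in Sca-1- luminal cells (log2 change 1.82 ± 0.47 (SE), adjusted p = 0.0103) and higher in stromal cells than in the epithelial mean (log2 change 1.73 ± 0.40 (SE), adjusted p = 0.0104). Its difference between Sca-1+ and Sca-1- luminal cells (log2 change 1.62 ± 0.42 (SE), adjusted p = 0.0163) was lost without replicate 2 of the Sca-1+ gate, or replicate 2 or 3 of the Sca-1- luminal gate (adjusted p = 0.0571, 0.0554 and 0.0534), and without replicates 1 and 2 of the Sca-1+ gate it was 0.68 (adjusted p = 0.282). The basal call was lost without basal replicate 1 (adjusted p = 0.0835), and the stromal call with either stromal library left out (adjusted p = 0.074 and 0.0862). Nr4a2, at 2.24 to 75.2 FPKM, had a residual SD of 1.11 within gates and a range of 2.81 between gate means, both on the log2 scale. Egr2, at 6.14 to 41.2 FPKM, and Nr4a1, at 93.0 to 829.6 FPKM, were not called by the F test (adjusted p = 0.427 and 0.117).

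The feedback and early response genes hold the most abundant member. Ier3 had 1869 and 1686 FPKM in stromal libraries, 3404 and 3070 FPKM in basal libraries, 1058, 1099 and 946.5 FPKM in Sca-1+ luminal libraries, and 214.5, 290.1 and 70.5 FPKM in Sca-1- luminal libraries. The gates were ordered basal, stromal, Sca-1+ luminal and Sca-1- luminal with no overlap between any pair. Ier3, a regulator of cell survival and of ERK signalling, was higher in basal than in Sca-1- luminal cells (log2 change 4.29 ± 0.54 (SE), adjusted p = 0.000245) and higher in Sca-1+ luminal than in Sca-1- luminal cells (log2 change 2.65 ± 0.48 (SE), adjusted p = 0.00399). Its difference between basal and Sca-1+ luminal cells was not called (log2 change 1.65, adjusted p = 0.0593). Ier5 had 196.5 and 131 FPKM in stromal libraries, 123 and 108 FPKM in basal libraries, 119.6, 87.8 and 89.1 FPKM in Sca-1+ luminal libraries, and 25.3, 22.1 and 5.14 FPKM in Sca-1- luminal libraries. The Sca-1- luminal libraries lay far below the rest, and Sca-1- luminal library 3 was the lowest of all. Ier5, which modulates the heat shock factor HSF1, was higher in Sca-1+ luminal (log2 change 2.67 ± 0.48 (SE), adjusted p = 0.00389) and in basal cells (log2 change 2.90 ± 0.54 (SE), adjusted p = 0.00205) than in Sca-1- luminal cells.

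Dusp1 had 689.9 and 717 FPKM in stromal libraries, 233 and 226 FPKM in basal libraries, 798, 615 and 505 FPKM in Sca-1+ luminal libraries, and 263.5, 158 and 299 FPKM in Sca-1- luminal libraries. The stromal and Sca-1+ luminal libraries overlapped at the top, and the basal libraries fell within the range of the Sca-1- luminal ones. Dusp1, the phosphatase that inactivates stress-activated MAP kinases, was higher in Sca-1+ luminal than in Sca-1- luminal cells (log2 change 1.44 ± 0.31 (SE), adjusted p = 0.00809) and lower in basal than in Sca-1+ luminal cells (log2 change -1.45 ± 0.35 (SE), adjusted p = 0.0187). The first difference was not called without Sca-1+ luminal replicates 1 and 2 (log2 change 1.12, adjusted p = 0.0868). The second difference was not called with either basal library left out (adjusted p = 0.107 and 0.126) or without Sca-1+ luminal replicate 2 (adjusted p = 0.0521).

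Zfp36 had 700.2 and 650 FPKM in stromal libraries, 860.4 and 513 FPKM in basal libraries, 492, 435 and 303 FPKM in Sca-1+ luminal libraries, and 298, 186 and 318 FPKM in Sca-1- luminal libraries. Sca-1- luminal libraries reached 318 FPKM, which overlapped the lowest Sca-1+ luminal library at 303 FPKM. Zfp36, which binds AU-rich elements and promotes decay of cytokine mRNAs, was higher in basal than in Sca-1- luminal cells (log2 change 1.35 ± 0.38 (SE), adjusted p = 0.0157), a call lost without basal replicate 1 (log2 change 0.98, adjusted p = 0.148). Rhob had 18.8 and 30.6 FPKM in stromal libraries, 34.3 and 44.9 FPKM in basal libraries, 10.2, 16.4 and 14.3 FPKM in Sca-1+ luminal libraries, and 35.8, 47.9 and 39.1 FPKM in Sca-1- luminal libraries. The Sca-1+ luminal libraries lay below every library of the other gates. Rhob, an early response GTPase, was lower in Sca-1+ luminal than in Sca-1- luminal cells (log2 change -1.53 ± 0.26 (SE), adjusted p = 0.00269) and higher in basal than in Sca-1+ luminal cells (log2 change 1.48 ± 0.29 (SE), adjusted p = 0.00753), the second call being lost without basal replicate 2 (adjusted p = 0.09).

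Btg2 had 155 and 162 FPKM in stromal libraries, 493.5 and 181 FPKM in basal libraries, 321.2, 297 and 238 FPKM in Sca-1+ luminal libraries, and 402, 319 and 356 FPKM in Sca-1- luminal libraries. All gates but the stromal one reached above 300 FPKM, and the F test did not call this antiproliferative gene (adjusted p = 0.113). Zfp36l1, a relative of Zfp36 at 20.8 to 139.9 FPKM, had its 3 lowest values in Sca-1- luminal libraries. Ier2 (139 to 462 FPKM) and the phosphatase gene Dusp2 (1.15 to 5.66 FPKM) were not called by the F test, with adjusted p of 0.325 and 0.591.

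The heat shock genes encode chaperones of the HSP70, HSP110, HSP40 and small HSP families, and the F test called 1 of the 6, Hspb1. Hspa1a had 572 and 348 FPKM in stromal libraries, 783 and 60.8 FPKM in basal libraries, 769.6, 373 and 1106 FPKM in Sca-1+ luminal libraries, and 504, 267 and 726 FPKM in Sca-1- luminal libraries. Basal library 2 was the lowest of all 10 and basal library 1 the second highest. Hspa8 (constitutive HSP70) had 363 and 321.5 FPKM in stromal libraries, 343 and 144 FPKM in basal libraries, 452, 261 and 431.5 FPKM in Sca-1+ luminal libraries, and 472, 289 and 437 FPKM in Sca-1- luminal libraries. Basal library 2 was again the lowest, and the gates overlapped. The coding sequences of Hspa1a and Hspa1b were identical at 1915 of 1923 bases of the shorter one (99.6%), so the split of reads between these copies is uncertain. Their levels ran in parallel, and Hspa1b was measured at 85.6 to 1290 FPKM.

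Hspb1 had 269 and 404 FPKM in stromal libraries, 1848 and 1469 FPKM in basal libraries, 535, 1150 and 1645 FPKM in Sca-1+ luminal libraries, and 773, 1286 and 659 FPKM in Sca-1- luminal libraries. The stromal libraries were the 2 lowest and the basal libraries were 2 of the 3 highest. Hspb1, a small heat shock protein that binds actin and is abundant in epithelia and muscle, was lower in stromal cells than in the epithelial mean (log2 change -1.77 ± 0.46 (SE), adjusted p = 0.0156). This was not called with either stromal library left out (adjusted p = 0.162 and 0.0619).

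**Figure D4:**
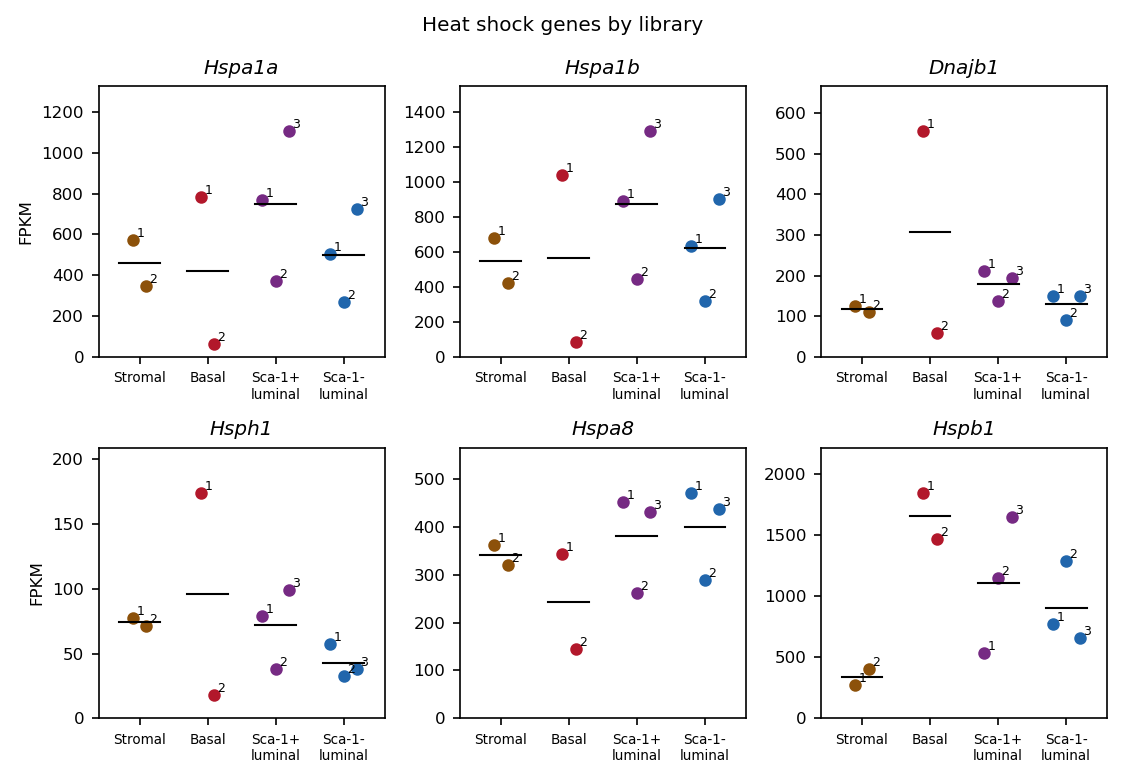
FPKM (vertical axes) of the 6 heat shock genes in each library, by gate (horizontal axes); points are libraries with their replicate number and bars are gate means. Basal library 2 lies at the bottom for Hspa1a, Hspa1b, Dnajb1, Hsph1 and Hspa8, with Hspa1a at 60.8 FPKM, against 783 FPKM in basal library 1, whereas Hspb1 is high in both.

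Over the 10 libraries the cochaperone gene Dnajb1 ranged over 59.8 to 556 FPKM and Hsph1, which encodes an HSP70 nucleotide exchange factor, over 17.9 to 174 FPKM. The 2 basal libraries differed more in these genes than in the transcriptome at large. Of the 42 members, 15 were higher in basal library 1 than in basal library 2 by at least 1 on the log2(FPKM + 1) scale, against 2.01% of all tested genes, and 0 members were lower by that much, against 1.32% of all tested genes. The gaps were 3.66 for Hspa1a, 3.59 for Hspa1b, 3.21 for Hsph1 and 3.20 for Dnajb1, then 2.44 for Nr4a1, 1.92 for Egr1, 1.83 for Egr2, 1.68 for Nr4a2, 1.44 for Btg2, 1.42 for Jun, 1.33 for Fos, 1.24 for Hspa8, 1.19 for Fosb, 1.15 for Atf3 and 1.10 for Cebpd. None of the GADD45 genes or the NF-kB and cytokine feedback genes was among them; the 2 libraries had 544 and 597 FPKM of Nfkbia. Of 25 further heat shock genes, 6 had such a gap in the same direction (Bag3, Dnaja1, Dnaja4, Hspa2, Hspa4l and Hspe1) and 0 in the other. The libraries had 23.9 and 22.4 M fragments, basal marker sums of 7649 and 8933 FPKM, fibroblast marker sums of 703 and 524 FPKM, and leukocyte marker sums of 26.2 and 38.2 FPKM; the part of these in the gap was not tested. Which of these genes the F test called depended on the basal library kept. Without basal library 1 it called Hspa1a, Hspa1b, Hsph1, Nr4a1 and Btg2, none of which it called with all libraries. Without basal library 2 the added genes were Dnajb1, Hsph1, Nr4a1 and Btg2. In both cases only 1 basal library was left.

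The other gates had such gaps too. Between the stromal libraries, 0 members differed by 1 or more in either direction, against 1.88% of all genes with library 1 higher and 4.75% with library 1 lower. Sca-1- luminal library 2 was lower than library 3 in 10 members, namely Nr4a2, Egr1, Egr2, Nr4a1, Hspa1a, Hspa1b, Fos, Fosb, Jun and Ier2, against 7.12% of all genes, and higher in 5, namely Gadd45a, Ier3, Ier5, Nfkbia and Maff, against 5.74% of all genes. Egr1 was at 158 FPKM in library 2 and at 503 FPKM in library 3, and Ier3 was at 290.1 FPKM in library 2 and at 70.5 FPKM in library 3. Members therefore moved in opposite directions between these replicates. Sca-1- luminal library 1 was higher than library 2 in 4 members, Nr4a1, Nr4a2, Egr1 and Egr2, against 2.99% of all genes, and higher than library 3 in 6, against 4.41% of all genes, and it was lower by that much in 0 members, against 1.39% and 1.64% of all genes. Sca-1+ luminal library 1 was higher than library 3 in 12 members, against 15.4% of all genes, and lower in 1, Hspb1, against 10.3% of all genes. Library 2 of this gate was higher than library 3 in 9 members, against 10.9% of all genes, and lower in 3 (Hspa1a, Hspa1b and Hsph1), against 3.91% of all genes. Library 1 exceeded library 2 in 5 members (4.05% of all genes) and lay below it in 1 (3.32% of all genes). The 12 included Gadd45g, Nr4a2, Socs3, Tnfaip3 and Cebpb, and these 2 libraries also differed in the fibroblast marker sum, with 5663 and 414 FPKM.

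Cebpb and Cebpd encode C/EBP factors induced in acute phase and inflammatory responses. Cebpb had 896 and 1135 FPKM in stromal libraries, 329.5 and 220.4 FPKM in basal libraries, 868, 685 and 265 FPKM in Sca-1+ luminal libraries, and 68.8, 54.9 and 47.2 FPKM in Sca-1- luminal libraries. Every Sca-1- luminal library lay below every other library, and the stromal libraries were the 2 highest. Cebpb was higher in Sca-1+ luminal (log2 change 3.24 ± 0.42 (SE), adjusted p = 0.000953) and in basal cells (log2 change 2.24 ± 0.47 (SE), adjusted p = 0.00404) than in Sca-1- luminal cells, and higher in stromal cells than in the epithelial mean (log2 change 2.31 ± 0.41 (SE), adjusted p = 0.00337). Cebpd had 442 and 422 FPKM in stromal libraries, 69.7 and 32.1 FPKM in basal libraries, 295, 186 and 184.5 FPKM in Sca-1+ luminal libraries, and 45.3, 39.3 and 27.2 FPKM in Sca-1- luminal libraries. The basal and Sca-1- luminal libraries overlapped at the bottom. Cebpd was higher in Sca-1+ luminal than in Sca-1- luminal cells (log2 change 2.54 ± 0.33 (SE), adjusted p = 0.000958) and higher in stromal cells than in the epithelial mean (log2 change 2.56 ± 0.32 (SE), adjusted p = 0.000878). It was lower in basal than in Sca-1+ luminal cells (log2 change -2.17 ± 0.37 (SE), adjusted p = 0.00455), which was not called without basal replicate 2 (adjusted p = 0.0601). A transcript of Spidr overlaps the Cebpd locus and reached at most 3.87 FPKM.

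Klf2 had 15.3 and 27.2 FPKM in stromal libraries, 1.54 and 1.6 FPKM in basal libraries, 12.8, 15.6 and 7.86 FPKM in Sca-1+ luminal libraries, and 9.26, 15.8 and 14.4 FPKM in Sca-1- luminal libraries. The basal libraries stood apart below all others and form part of the epithelial mean used below. The stromal and luminal libraries overlapped. Klf2, known for its role in endothelial cells, was lower in basal than in Sca-1- luminal (log2 change -2.43 ± 0.35 (SE), adjusted p = 0.000529) and Sca-1+ luminal cells (log2 change -2.30 ± 0.35 (SE), adjusted p = 0.00274). In stromal cells it was higher than in the epithelial mean (log2 change 1.49 ± 0.31 (SE), adjusted p = 0.00607), a call lost without stromal replicate 2 (log2 change 1.09, adjusted p = 0.0859). Endothelial markers summed to 6.04 and 8.20 FPKM in the basal libraries and to 15.4 and 12.7 FPKM in the stromal libraries; their part in the level of Klf2 was not tested.

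Klf6 had 80.3 and 95.9 FPKM in stromal libraries, 510 and 317 FPKM in basal libraries, 220.2, 260 and 244.5 FPKM in Sca-1+ luminal libraries, and 307, 332 and 179 FPKM in Sca-1- luminal libraries. The stromal libraries were the 2 lowest and basal library 1 the highest. Klf6, a zinc finger factor that restrains proliferation, was lower in stromal cells than in the epithelial mean (log2 change -1.73 ± 0.29 (SE), adjusted p = 0.00274). Klf4, at 11.4 to 60.7 FPKM, was highest in the 2 stromal libraries and was called higher in stromal cells (log2 change 1.10 ± 0.25 (SE), adjusted p = 0.00963), but not without stromal replicate 1 (adjusted p = 0.105). Myc (58.0 to 232 FPKM) was not called by the F test (adjusted p = 0.353).

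The GADD45 genes encode small proteins induced by DNA damage and stress that activate p38 and JNK signalling. Gadd45b had 292.5 and 415 FPKM in stromal libraries, 135 and 135 FPKM in basal libraries, 299.5, 302.5 and 128 FPKM in Sca-1+ luminal libraries, and 40.6, 28.1 and 35.2 FPKM in Sca-1- luminal libraries. The Sca-1- luminal libraries were the 3 lowest and did not overlap the others. Gadd45b was higher in Sca-1+ luminal (log2 change 2.69 ± 0.35 (SE), adjusted p = 0.000884) and in basal cells (log2 change 1.95 ± 0.39 (SE), adjusted p = 0.00286) than in Sca-1- luminal cells, and higher in stromal cells than in the epithelial mean (log2 change 1.76 ± 0.34 (SE), adjusted p = 0.00435), the last not called without stromal replicate 2 (adjusted p = 0.0578). Gadd45g had 729 and 1092 FPKM in stromal libraries, 91.6 and 62.4 FPKM in basal libraries, 591, 465 and 82.1 FPKM in Sca-1+ luminal libraries, and 166, 208 and 191 FPKM in Sca-1- luminal libraries. The stromal libraries were highest, and Sca-1+ luminal library 3 lay with the basal libraries rather than with the other Sca-1+ luminal libraries. Gadd45g was higher in stromal cells than in the epithelial mean (log2 change 2.48 ± 0.61 (SE), adjusted p = 0.0131), a call lost with either stromal library left out (adjusted p = 0.0715 and 0.111). Gadd45a, at 35.8 to 202.5 FPKM, was not called by the F test (adjusted p = 0.714).

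The NF-kB and cytokine feedback genes were the role in which the F test called every gene, and Sca-1- luminal cells had the lowest level of each. Tnfaip3 had 117.5 and 153 FPKM in stromal libraries, 59.7 and 54.2 FPKM in basal libraries, 111, 62.6 and 33.2 FPKM in Sca-1+ luminal libraries, and 7.3, 4.27 and 5.87 FPKM in Sca-1- luminal libraries. The Sca-1- luminal libraries were the 3 lowest, by a wide margin. Tnfaip3, the ubiquitin-editing enzyme A20 that shuts off NF-kB signalling and whose promoter stretch is printed above with Nfkbia, was higher in Sca-1+ luminal (log2 change 3.22 ± 0.38 (SE), adjusted p = 0.000634) and in basal cells (log2 change 3.11 ± 0.43 (SE), adjusted p = 0.000392) than in Sca-1- luminal cells. It was also higher in stromal cells than in the epithelial mean (log2 change 2.22 ± 0.37 (SE), adjusted p = 0.00261).

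Socs3 had 426 and 313 FPKM in stromal libraries, 82.5 and 55.7 FPKM in basal libraries, 266.5, 120.2 and 51.1 FPKM in Sca-1+ luminal libraries, and 15.4, 9.89 and 20.6 FPKM in Sca-1- luminal libraries. All 3 Sca-1- luminal libraries lay below the other gates, and the stromal libraries were the 2 highest. Socs3, the inhibitor of JAK-STAT signalling downstream of IL-6 family cytokines, was higher in Sca-1+ luminal (log2 change 2.92 ± 0.52 (SE), adjusted p = 0.00357) and in basal cells (log2 change 2.13 ± 0.58 (SE), adjusted p = 0.0141) than in Sca-1- luminal cells, the second not called without basal replicate 1 (log2 change 1.85, adjusted p = 0.101). The first was 1.73 without Sca-1+ luminal replicates 1 and 2 (adjusted p = 0.0278). In stromal cells it was higher than in the epithelial mean (log2 change 2.86 ± 0.51 (SE), adjusted p = 0.00328). Nfkbiz had 59.0 and 60.9 FPKM in stromal libraries, 31.7 and 19.9 FPKM in basal libraries, 49.8, 33.2 and 26.6 FPKM in Sca-1+ luminal libraries, and 7.37, 6.97 and 5.5 FPKM in Sca-1- luminal libraries. Again, no Sca-1- luminal library reached the level of any other. Nfkbiz, a nuclear IkB protein needed for a subset of NF-kB targets, was higher in Sca-1+ luminal (log2 change 2.26 ± 0.27 (SE), adjusted p = 0.000618) and in basal cells (log2 change 1.79 ± 0.30 (SE), adjusted p = 0.00115) than in Sca-1- luminal cells.

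Nfkbia had 695 and 844 FPKM in stromal libraries, 544 and 597 FPKM in basal libraries, 601, 536 and 257 FPKM in Sca-1+ luminal libraries, and 106, 153 and 68.8 FPKM in Sca-1- luminal libraries. The lowest library outside the Sca-1- luminal gate was Sca-1+ luminal library 3. Nfkbia, the inhibitor that retains NF-kB in the cytoplasm, was higher in basal than in Sca-1- luminal cells (log2 change 2.45 ± 0.44 (SE), adjusted p = 0.00169) and higher in Sca-1+ luminal than in Sca-1- luminal cells (log2 change 2.06 ± 0.39 (SE), adjusted p = 0.00494). The second difference was not called without Sca-1+ luminal replicates 1 and 2 (log2 change 1.30, adjusted p = 0.0767). The fibroblast markers summed to 703 and 524 FPKM in the basal libraries and to 414 FPKM in Sca-1+ luminal library 3. In Sca-1- luminal libraries the sums were 79.3 to 144 FPKM. Of these sums, Dcn made up 655 and 459 FPKM in the basal libraries and 233 FPKM in Sca-1+ luminal library 3. Every other marker but Fn1 was lower in both basal libraries than in Sca-1+ luminal library 3. The part of fibroblast transcripts in the levels of these 4 genes was not tested.

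**Figure D5:**
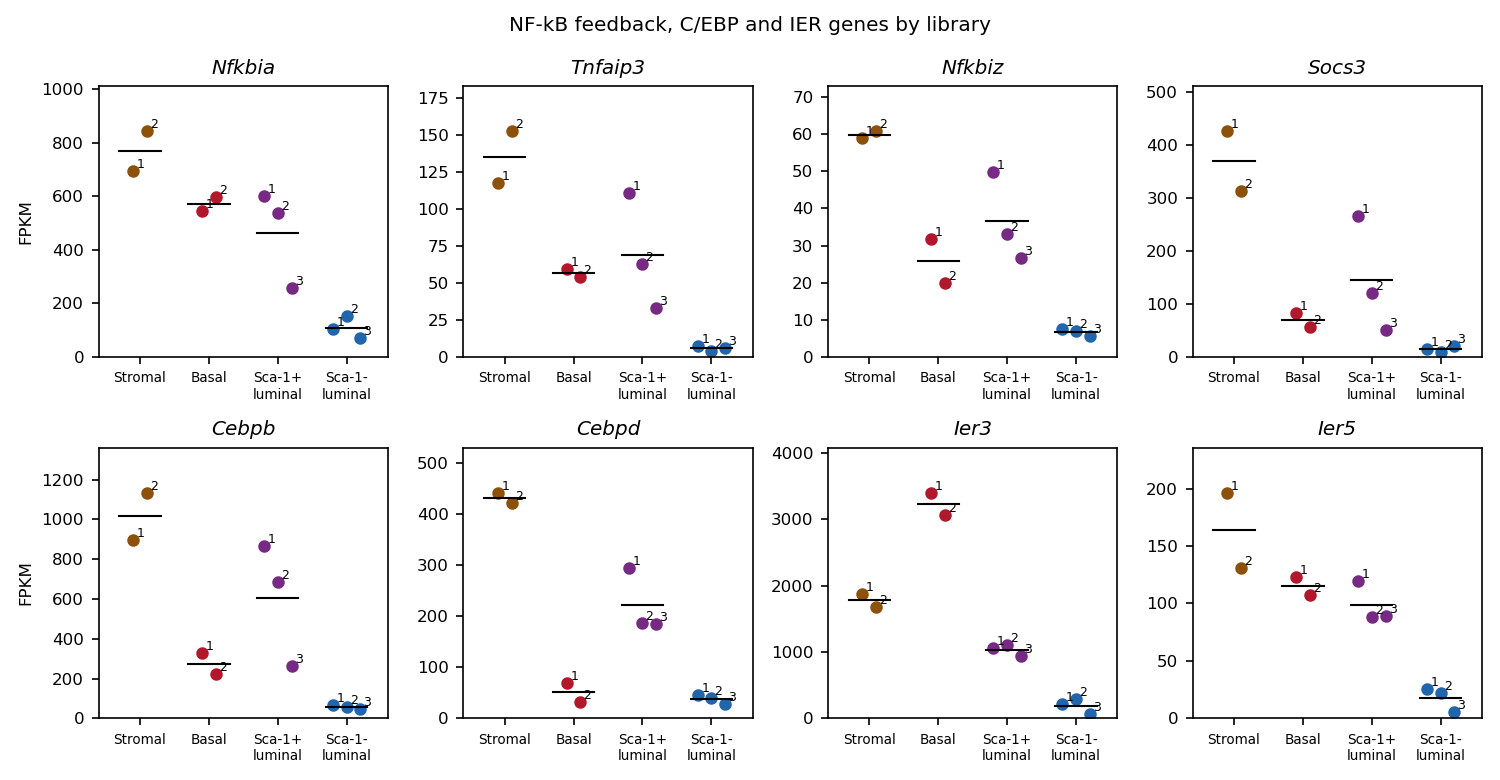
FPKM (vertical axes) of 8 members in each library, by gate (horizontal axes); points are libraries with their replicate number and bars are gate means. In all 8 panels the Sca-1- luminal means are the lowest, and Ier3 differs from the rest in that its highest values, 3404 and 3070 FPKM, are in the basal libraries.

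Other genes of the same pathways were counted for context, from lists that share no gene with the members. Their counts stand beside all genes tested, of which 21.8% were higher and 13.2% lower between the luminal gates and 20.1% higher and 25.9% lower in basal than in Sca-1- luminal cells. Without Sca-1+ luminal replicates 1 and 2, which held the most fibroblast transcripts of their gate, 10.3% of all genes were higher and 6.08% lower between the luminal gates; for these lists, leaving both out was chosen after seeing the data. All 12 fibroblast markers were higher in Sca-1+ luminal than in Sca-1- luminal cells, and 8 of the 12 were without these libraries. Of 23 further NF-kB subunits, regulators and targets, 17 were higher and 1 lower in Sca-1+ luminal than in Sca-1- luminal cells, with a median log2 change of 2.25, and 16 were higher and 1 lower in basal than in Sca-1- luminal cells. Without Sca-1+ luminal replicates 1 and 2, 11 of the 23 were higher and 0 lower between the luminal gates, with a median log2 change of 1.69. The largest changes between luminal gates were those of the cytokine Lif (log2 change 4.14 ± 0.78 (SE), adjusted p = 0.00461), the chemokine Cxcl1 (log2 change 4.08 ± 0.78 (SE), adjusted p = 0.00504) and the adhesion molecule Icam1 (log2 change 3.89 ± 0.78 (SE), adjusted p = 0.00589). Without those libraries the changes were 2.09 for Lif (adjusted p = 0.0435), 2.22 for Cxcl1 (adjusted p = 0.051) and 1.74 for Icam1 (adjusted p = 0.0312). Icam1 had 504 and 503 FPKM in stromal libraries, 404 and 303.5 FPKM in basal libraries, 584, 274 and 41.99 FPKM in Sca-1+ luminal libraries, and 19.3, 10.9 and 7.84 FPKM in Sca-1- luminal libraries. Sca-1+ luminal library 3, with the lowest fibroblast marker sum of its gate, was the lowest library outside the Sca-1- luminal gate; the part of fibroblast transcripts in these differences was not tested. In stromal cells 12 of the 23 were higher and 1 lower than in the epithelial mean, led by Cxcl1 (log2 change 5.09 ± 0.76 (SE), adjusted p = 0.00164), Il6 (log2 change 4.62 ± 0.50 (SE), adjusted p = 0.000514) and Cxcl5 (log2 change 4.08 ± 0.42 (SE), adjusted p = 0.000471). Between basal and Sca-1+ luminal cells 1 was higher (Tnf) and 1 lower (Tnfaip2), and without Sca-1+ luminal replicates 1 and 2, 4 were higher and 0 lower.

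Of 20 further AP-1, EGR and serum response genes, 12 were higher and 0 lower in Sca-1+ luminal than in Sca-1- luminal cells, and 11 were higher and 0 lower in basal than in Sca-1- luminal cells. Between the luminal gates 3 were higher and 0 lower without Sca-1+ luminal replicates 1 and 2, a share of 15%, against 10.3% of all genes. Arc had 37.0 and 46.8 FPKM in stromal libraries, 726 and 540.2 FPKM in basal libraries, 366, 504 and 394 FPKM in Sca-1+ luminal libraries, and 50.6, 58.8 and 17.4 FPKM in Sca-1- luminal libraries. The basal and Sca-1+ luminal libraries lay well above the stromal and Sca-1- luminal ones. Arc, an early gene best known in neurons, was higher in Sca-1+ luminal (log2 change 3.44 ± 0.41 (SE), adjusted p = 0.000642) and in basal cells (log2 change 4.03 ± 0.46 (SE), adjusted p = 0.000145) than in Sca-1- luminal cells, and lower in stromal cells than in the epithelial mean (log2 change -2.34 ± 0.40 (SE), adjusted p = 0.00283). Jdp2 (log2 change 3.21 ± 0.27 (SE), adjusted p = 0.000186) and the Fos family gene Fosl1 (log2 change 3.18 ± 0.94 (SE), adjusted p = 0.0279) followed it between the luminal gates. Without those replicates the changes were 3.36 for Arc (adjusted p = 0.00848), 3.28 for Jdp2 (adjusted p = 0.00137) and 2.83 for Fosl1 (adjusted p = 0.209).

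Of 19 MAP kinase pathway genes, 7 were higher and 1 lower in Sca-1+ luminal than in Sca-1- luminal cells, and 6 were higher and 3 lower in basal than in Sca-1- luminal cells. These totals of 8 and 9 were near the shares over all genes, 35% and 46%. With replicates 1 and 2 of the Sca-1+ gate left out, 4 were higher and 0 lower between the luminal gates. The ERK phosphatase Dusp6 was higher in basal than in Sca-1- luminal cells (log2 change 4.50 ± 0.49 (SE), adjusted p = 0.000109), as was Dusp7 (log2 change 4.10 ± 0.32 (SE), adjusted p = 2.48e-05), and Dusp4 was higher in Sca-1+ luminal than in Sca-1- luminal cells (log2 change 2.71 ± 0.28 (SE), adjusted p = 0.000373). Of 42 delayed response genes, 23 were higher and 2 lower in Sca-1+ luminal than in Sca-1- luminal cells, led by the prostaglandin synthase gene Ptgs2 (log2 change 5.24 ± 0.82 (SE), adjusted p = 0.00201), and 25 were higher and 3 lower in basal than in Sca-1- luminal cells, led by the urokinase receptor gene Plaur (log2 change 4.57 ± 1.03 (SE), adjusted p = 0.00547). Without Sca-1+ luminal replicates 1 and 2, 14 of the 42 were higher and 4 lower between the luminal gates, and the change of Ptgs2 was 3.10 (adjusted p = 0.0124). Ccn1 had 356 and 369.7 FPKM in stromal libraries, 5607 and 2836 FPKM in basal libraries, 872.5, 598 and 497 FPKM in Sca-1+ luminal libraries, and 380.5, 206 and 269.8 FPKM in Sca-1- luminal libraries. The basal libraries were the 2 highest, and Ccn1, a matricellular target of YAP and serum response factor, was higher there than in Sca-1+ luminal cells (log2 change 2.64 ± 0.43 (SE), adjusted p = 0.00358).

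Of 25 further heat shock genes, 5 were higher and 2 lower in Sca-1+ luminal than in Sca-1- luminal cells, and 4 were higher and 4 lower in basal than in Sca-1- luminal cells. These totals of 7 and 8 lay below the shares over all genes, 35% and 46%. When replicates 1 and 2 of the Sca-1+ gate were left out, 2 were higher and 0 lower between the luminal gates, and Bag3, named next, was not called (log2 change 1.05, adjusted p = 0.194). The cochaperone gene Bag3 was higher in Sca-1+ luminal than in Sca-1- luminal cells (log2 change 1.58 ± 0.39 (SE), adjusted p = 0.0133), the mitochondrial chaperone gene Hspa9 was higher in basal than in Sca-1- luminal cells (log2 change 1.95 ± 0.27 (SE), adjusted p = 0.000389), and the polyubiquitin gene Ubb was lower in basal than in Sca-1- luminal cells (log2 change -2.05 ± 0.38 (SE), adjusted p = 0.00185). The summed level of the 25 genes was 4319 and 4513 FPKM in stromal, 4868 and 2969 FPKM in basal, 4762, 4317 and 4416 FPKM in Sca-1+ luminal and 4983, 4158 and 4883 FPKM in Sca-1- luminal libraries, so basal library 2 was again the lowest.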

How the data were processed

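RNA from 10 libraries of sorted mouse prostate cells was amplified with the NuGEN Ovation kit (random and poly(dT) priming) and sequenced on an Illumina HiSeq, per the labels' protocols. Reads were processed with bcl2fastq 1.8.3, TopHat and Cufflinks on mm10, per the submitters' processing notes, where only the first has a version; no source used here says whether strand was kept. The deposited FPKM of 63241 transcripts per library were computed by the authors with Cufflinks, per the file headers. The coverage column of the deposited files was not tested.

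Transcripts were assigned to genes by mm10 position with GENCODE M21 and RefSeq of GRCm38.p6 (83.6% assigned), those under 300 nt were dropped, and FPKM was summed per gene. Genes reaching 1 FPKM in 2 or more of the libraries were tested on log2(FPKM + 1) with limma 3.58.1 (R 4.3.3; 4 group means, 6 residual degrees of freedom, trended empirical Bayes, Benjamini-Hochberg over all 12394 genes, called at an adjusted p under 0.05); fold changes on this scale understate the change of low genes. The fit was tested on simulated data. Of low values at 5928 isolated transcripts, 92.6% to 94.1% lay within 0.05 of a whole fragment, which gave the depth. A gene at 0 can be a failed estimate: 482 genes were at 0 in some library but reached 5 FPKM elsewhere. Labels give no replicate number, so libraries were numbered in listing order, and they do not say that libraries came from separate animals, so p-values measure only the spread between these libraries. The members and lists were chosen with earlier results of these data known. Per-library values are given for Atf3, Fos and Egr1, the 8 members with the highest minimum, the 12 called members with the largest range of gate means, and the 3 largest changes each way per comparison; the genes of the replicate gaps were chosen after their values were seen. Of other lists, up to 3 genes with the largest called change are named. Alternatives changed the pseudocount, filter, scaling, transcript assignment, fit and libraries.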

Additional observations from a re-analysis of the deposited data

How the results depend on the processing

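No paired analysis was possible because the labels carry no replicate numbers. The 6 counts were 28 members by the F test, 18 in Sca-1+ against Sca-1- luminal cells, 17 in basal against Sca-1- luminal cells, 7 in basal against Sca-1+ luminal cells, 20 in stromal cells against the epithelial mean, and 25 high in every gate. Leaving out 1 library gave 22 to 30, 15 to 20, 16 to 19, 1 to 11 and 9 to 22 for the first 5. In basal against Sca-1+ luminal cells, 4 members were called with no filter and also without Sca-1+ luminal replicates 1 and 2 together. Sca-1+ against Sca-1- luminal cells gave 10 without both replicates. With transcripts matched at both ends, 27 members were left, of which 17 were called by the F test, 11 in basal against Sca-1- luminal and 4 in basal against Sca-1+ luminal cells. Of the 28 members called by the F test, 21 were called under every alternative that gave a value; Fos, Jun, Junb, Hspb1, Zfp36, Gadd45g and Nr4a2 were not.

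The calls of the markers in the report kept their direction. Differences that were not called changed sign. For Atf3, basal against Sca-1- luminal cells was 0.17 with quantile normalization and -0.94 to 0.21 with 1 library left out, and basal against Sca-1+ luminal cells was -0.07 to 1.08 with 1 library left out. For Egr1, Sca-1+ against Sca-1- luminal cells was -0.15 with median-of-ratios scaling, -0.59 without Sca-1+ luminal replicates 1 and 2 together, and -0.46 to 0.37 with 1 library left out; basal cells then gave -0.18 to 1.74 against Sca-1- and -0.22 to 1.71 against Sca-1+ luminal cells. The cause was not tested. Quantile normalization shifted the median change of all genes by -0.26 between luminal gates and by 0.37 between basal and Sca-1+ luminal cells, and median-of-ratios scaling by -0.14, 0.15 and, for stromal cells, 0.11. The share of all called genes that were higher in Sca-1+ luminal than in Sca-1- luminal cells was 62.2%, 40.4% with quantile and 48.5% with median-of-ratios scaling, while members split 17 to 1, 15 to 1 and 15 to 2; with median-of-ratios scaling Atf3 was called lower (log2 change -1.04, adjusted p = 0.0489). For basal against Sca-1+ luminal cells these shares were 22.2%, 52.8% and 35.8%, and members split 2 to 5, 3 to 4 and 2 to 4. With 2 or 3 libraries a gate and a median SD of 0.54, no member was called between 2 gates, with all libraries, at a change under 1 on the log2 scale.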
